A study of Mus musculus with 8 samples.

Results

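The 8 genes described here are mouse C9orf72 and its protein partners Smcr8 and Wdr41, the folliculin gene Flcn with its partners Fnip1 and Fnip2, and the GATOR1 subunit genes Nprl2 and Nprl3. They were chosen by name, because their proteins form the C9orf72 complex or are related to it in fold, and not by any measured value. Earlier results of these data were known when they were chosen. Each of the 8 matched 1 row, of 15978 rows in the authors' deposited table, through its RefSeq transcript names. Brain RNA of male mice on an SJL/Bl6 background was sequenced from 5 mice that carry a human C9ORF72 bacterial artificial chromosome (BAC) with 500 G4C2 repeats, called C9-BAC here, and from 3 wild-type mice. The labels state no age, brain region, line or founder, and whether the human insert is driven by its own promoter was not given in the sources used here. Each sample has its own number and was taken as 1 mouse. The labels do not say outright that the samples are separate animals; if they are not, the p-values reflect the spread among samples alone, which may be technical.

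Expanded G4C2 repeats in C9ORF72 cause inherited forms of amyotrophic lateral sclerosis and frontotemporal dementia. Its protein forms a stable complex with SMCR8 and WDR41, which is recruited to lysosomes when amino acids are scarce and acts on small GTPases in membrane traffic and autophagy. C9ORF72, SMCR8, folliculin and the folliculin-interacting proteins carry longin and DENN domains, a fold found in many regulators of Rab GTPases, and NPRL2 and NPRL3 are distant relatives. Folliculin with FNIP1 or FNIP2 stimulates GTP hydrolysis by the GTPases RagC and RagD at the lysosome, and GATOR1 stimulates it for RagA and RagB. Both thus act on the kinase complex mTORC1, which couples growth to nutrients. The comparison asks whether the human transgene with its repeats goes along with a change in the mouse gene or in its partners.

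The repeat unit that defines the transgene is the hexamer GGGGCC, so the mouse start sites were searched for it. RefSeq windows of the GRCm38.p6 build, reaching from 250 bases before to 50 after a start site, were matched for 7 of the 8 genes. The hexamer, on either strand, was present in 4 of these 7 windows, among them that of C9orf72, against 25.0% of 32851 windows in the table. None of the 4 held it more than 1 time in tandem. The sites are shown with 12 bases of context on each side and the hexamer in capitals (GGGGCC, or its complement GGCCCC), 5′ to 3′ on the strand of the gene.
C9orf72: cggtcccggggcGGGGCCcggagcgggctg
Fnip2: ccccgtcgccatGGCCCCgccgcggccgcc
Nprl2: aactggaccctcGGCCCCgccagccgcgcc
Fnip1: ccaatggcaggcGGCCCCgcctccccaccc
The C9orf72 stretch is chr4:35225836-35225865, minus strand, and its hexamer begins 17 bases before the start site of the window. In the GENCODE vM21 annotation that hexamer falls in the 5′ untranslated exon of 1 of 7 C9orf72 transcripts. The Fnip2 stretch is chr3:79567671-79567700, minus strand, with the hexamer in an untranslated exon of 1 of 6 transcripts. The Nprl2 stretch (chr9:107542074-107542103, plus strand) and the Fnip1 stretch (chr11:54438046-54438075, plus strand) hold the hexamer outside the GENCODE exons of these genes, 123 and 121 bases before the start sites on which their windows are placed. Both of these start sites lie inside the RefSeq gene bounds given further on, so the hexamers are nearer to those bounds. The C9orf72 and Fnip2 hexamers themselves lie inside the RefSeq bounds of their genes.

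Folliculin acts upstream of TFEB and TFE3, transcription factors that bind the E-box CACGTG, most strongly within the longer palindrome TCACGTGA. CACGTG was found in 1 of the 7 windows, that of Fnip1, against 7.15% of all windows, and the longer form in 0 of 7, against 0.974%. The Fnip1 stretch, with the E-box in capitals, is chr11:54438092-54438121 on the plus strand, and the E-box, at 54438104 to 54438109, begins 75 bases before the start site of the window. It spans the outer RefSeq bound of the gene, at 54438107.
Fnip1: tcagtttgctgcCACGTGatacggctcgtc
A match is a description of letters and not a measured binding site.

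At an adjusted p of 0.05 (DESeq2, Benjamini-Hochberg), none of the 8 genes differed between the genotypes, and none had an unadjusted p under 0.05. The same held for the table as a whole: 0% of 15944 rows with a p passed the adjusted threshold and 1.50% (239 rows) had an unadjusted p under 0.05. Without any differences, calibrated p-values would fall under 0.05 at a rate of 0.05, which is above 1.50%. Over rows averaging at least 10 normalized counts, the Wald statistics had a spread of 0.789 (from the median absolute deviation), under the 1 of a calibrated score. The deposited p-values may therefore be conservative, and the absence of small ones was not shown to mean no difference. For the 8 genes the log2 fold changes ran from -0.09 to 0.07 in the authors' deposited table, and each lay within 0.1 of 0, as did 82.6% of all rows. Of the 8, 6 were negative and 2 positive, where 52.5% of all rows were negative and 47.5% positive. Their median log2 fold change was -0.04 and that of all rows was 0.00 to 2 decimals. The file does not name the genotype in the numerator, so each sign is as deposited and says nothing of which genotype was higher. The table holds 1 value per gene for the whole comparison and no value per mouse. The spread between mice enters only through the deposited standard error, which does not measure it directly.

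**Figure D1:**
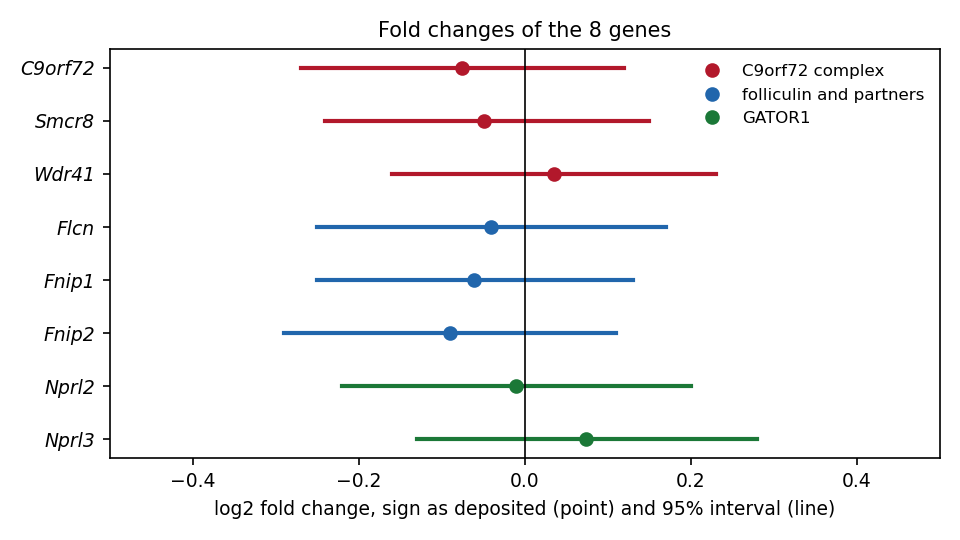
Log2 fold change of each of the 8 genes (x axis, sign as deposited) between 5 C9-BAC and 3 wild-type brains. Points are the deposited estimates, lines the 95% intervals computed from the deposited standard errors, and colours the complexes; all 8 intervals include 0, and the estimates lie between -0.09 (Fnip2) and 0.07 (Nprl3).

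Mouse C9orf72, identified in the files as NM_001081343, lies on chromosome 4 at 35191285 to 35226153 (mm10, minus strand). The authors' deposited table lists it at 311.2 normalized counts, the mean over the 8 mice of counts divided by size factors. Its log2 fold change there, again per the authors' deposited table, was -0.08 ± 0.10 (standard error; p = 0.454, DESeq2 adjusted p = 0.9997). The 95% interval computed from that standard error ran from -0.27 to 0.12, or from 0.828-fold to 1.09-fold. With this standard error, a deposited fold change of 1.15 was needed for an unadjusted p of 0.05. One of 1.38, or 0.47 on the log2 scale, was needed for the gene to pass alone among all rows tested. No row reached that, the largest absolute log2 fold change being 0.35. These figures are on the scale of the deposited values and were not shown to be limits of detection for expression. Values of the human C9ORF72 transcript were not analysed here. Whether any reads of the human transcript were counted in the mouse C9orf72 row was not given in the sources used here, and was not tested.

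Smcr8 encodes the partner that binds C9orf72 directly and carries the arginine finger of the complex's GTPase-activating function. It lies on chromosome 11 at 60777525 to 60788287 (plus strand), averaged 613.8 normalized counts, the highest of the C9orf72 complex, and its log2 fold change was -0.05 ± 0.10 (standard error) in the authors' deposited table (DESeq2, unadjusted p = 0.626, adjusted p = 0.9997). Its 95% interval was -0.24 to 0.15. Wdr41 encodes the beta-propeller protein that holds the complex at the lysosome through the transporter PQLC2. On chromosome 13 at 94976329 to 95023316 (plus strand), it averaged 269.5 normalized counts, and its log2 fold change was 0.04 ± 0.10 (standard error) in the authors' deposited table (DESeq2, unadjusted p = 0.728, adjusted p = 0.9997). The 95% interval of Wdr41 was -0.16 to 0.23. The 3 subunit genes thus had estimates of both signs, 2 negative and 1 positive, and intervals that overlap along most of their length. The gene of PQLC2, Slc66a1, averaged 73.6 normalized counts and stood at -0.02 (log2) in the authors' deposited table (p = 0.868).

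The 3 folliculin genes were all negative in sign, and none passed. Flcn, the tumour suppressor gene of Birt-Hogg-Dubé syndrome, lies on chromosome 11 at 59791408 to 59810039 (minus strand). Per the authors' deposited table it averaged 497.7 normalized counts, with a fold change of -0.04 ± 0.11 (log2, standard error; p = 0.697, DESeq2 adjusted p = 0.9997). Fnip1, on chromosome 11 at 54438107 to 54518241 (plus strand), had the highest mean of the 8, 918.7 normalized counts in the authors' deposited table, and its fold change was -0.06 ± 0.10 (log2, standard error; p = 0.536, DESeq2 adjusted p = 0.9997). Its paralog Fnip2, on chromosome 3 at 79455971 to 79568151 (minus strand), averaged 312.3 normalized counts and had the fold change farthest from 0 of the 8 genes, -0.09 ± 0.10 (log2, standard error) in the authors' deposited table (DESeq2, unadjusted p = 0.379, adjusted p = 0.9997). Of all rows tested, 25.4% had a smaller p than Fnip2. The 95% intervals were -0.25 to 0.17 for Flcn, -0.25 to 0.13 for Fnip1 and -0.29 to 0.11 for Fnip2.

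The GATOR1 genes had estimates of either sign. Nprl2, on chromosome 9 at 107542177 to 107545706 (plus strand), encodes the subunit that stimulates GTP hydrolysis by RagA. It averaged 249.5 normalized counts, and its fold change of -0.01 ± 0.11 (log2, with its standard error) was, in the authors' deposited table, the nearest to 0 of the 8 genes (p = 0.922, DESeq2 adjusted p = 0.9997). Nprl3, its partner subunit gene, on chromosome 11 at 32231963 to 32267707 (minus strand), averaged 243.2 normalized counts, with 0.07 ± 0.10 (log2 fold change, standard error) in the authors' deposited table (DESeq2, unadjusted p = 0.471, adjusted p = 0.9997). Their 95% intervals were -0.22 to 0.20 and -0.13 to 0.28. Depdc5, which encodes the subunit that completes GATOR1, averaged 743.6 normalized counts, with -0.06 ± 0.08 (log2 fold change, standard error) in the authors' deposited table (DESeq2, unadjusted p = 0.447, adjusted p = 0.9997).

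All 8 genes had a p and averaged at least 10 normalized counts. They lay above the median row by abundance, between percentile 57.6 (Nprl3) and percentile 85.1 (Fnip1) of mean normalized count. Their standard errors ran from 0.099 to 0.106 in the authors' deposited table, close to the median of 0.102 over all rows. Among the 500 rows nearest in abundance, the standard errors of the 8 genes stood between percentile 23.6 (Wdr41) and percentile 63.2 (Flcn). C9orf72 was at 29.8, and none of these standard errors was extreme for its abundance. The largest standard error of any row was 0.110, so these percentiles rank a narrow range and are not a measure of spread between mice. In the authors' deposited table, rows under 10 normalized counts had a median standard error of 0.0516, smaller than that of any of the 8 genes. Standard errors this small at low counts occur where a fit draws fold changes toward 0 (shrinkage), which no source used here records. With shrinkage, the fold changes, intervals and needed fold changes above would be too small and would set no upper limit on the differences.

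**Figure D2:**
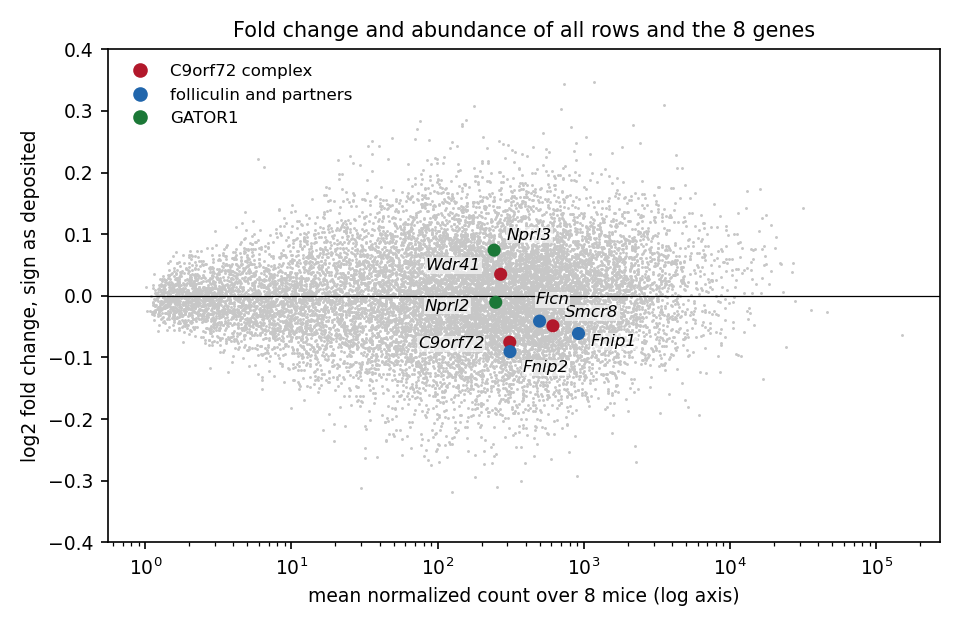
Log2 fold change (y axis, sign as deposited) against mean normalized count over the 8 mice (x axis, log scale) for all 15978 rows in grey and the 8 genes in colour. The 8 genes lie between mean normalized counts of 243.2 and 918.7, inside the cloud of all rows and within 0.1 of 0.

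Levels between genes can be compared only per length of transcript. With the longest matched transcript as the length, Nprl2 had the highest mean normalized count per kilobase, 173.2, although its count was among the lowest, since its transcript of 1441 bases is the shortest of the 8. Fnip1 followed at 146.9 and Flcn at 139.5 per kilobase. C9orf72 had 97.5, Wdr41 88.0, Smcr8 83.0, Fnip2 82.7 and Nprl3 82.6 mean normalized counts per kilobase. Smcr8, behind only Fnip1 by count, was among the lowest per kilobase because its longest transcript has 7391 bases. The median over 15751 rows with a length was 60.3 per kilobase, and all 8 genes were above it, from percentile 57.9 for Nprl3 to percentile 76.5 for Nprl2. Depdc5 had 90.5 per kilobase. With the shortest transcript as the length, Smcr8 moved from 83.0 to 173.2 and Flcn from 139.5 to 179.8 per kilobase, so their places in this order depend on the isoform. Genes with 1 matched transcript have a single length through the matching alone. GENCODE holds 7 transcripts of C9orf72, 6 of Fnip2, 5 of Nprl2 and 2 of Fnip1, so their places may depend on the isoform too. No spread over mice is given for a level, so neighbours in the order, above all Smcr8, Fnip2 and Nprl3, were not shown to differ.

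**Figure D3:**
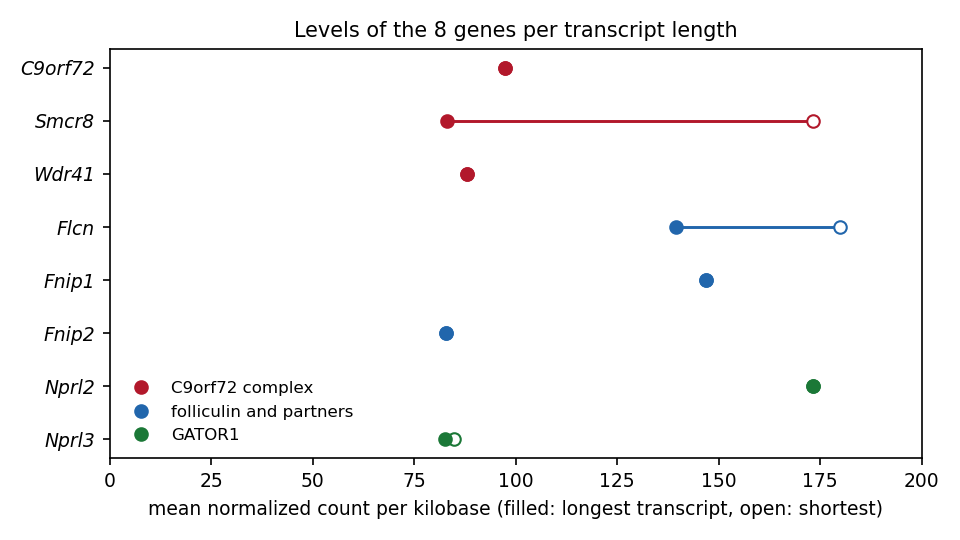
Mean normalized count per kilobase (x axis) of the 8 genes, with the longest matched transcript as length (filled points) and the shortest (open points, joined by a line where they differ). Nprl2 stands at 173.2, Smcr8 spans 83.0 to 173.2 and C9orf72, with 1 matched transcript, has a single value of 97.5.

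The libraries were made from total RNA without poly(A) selection, and the kind of reads counted, exonic or whole gene, was not given in the sources used here, so a level per kilobase also rests on the assumption that transcripts were counted. In bulk tissue, fewer cells that express a gene and less RNA per cell cannot be told apart. Marker genes of neurons (6 of 6), astrocytes (5 of 5), oligodendrocytes (5 of 5), microglia (6 of 6) and endothelium (4 of 4) were present in the table, with Snap25 of neurons at 13868 and the myeloid receptor gene Csf1r at 921.5 mean normalized counts in the authors' deposited table. Of 5 genes of other organs 1 had a row, the myosin gene Myh7, at 167.2 normalized counts in the authors' deposited table. Among myeloid markers, of interest because C9orf72 is known to be abundant in myeloid cells, 2 of 6 were positive and 4 negative, with a median log2 fold change of -0.03. Of these, 0 of 6 had an unadjusted p under 0.05, as did only 1.50% of all rows. Neuronal markers, 4 positive and 2 negative, had a median of 0.02. They ran from -0.19 (Gad1, DESeq2 unadjusted p = 0.069) to 0.10 in the authors' deposited table. Astrocyte markers had a median of -0.03, and 5 of 5 were negative, against 52.5% of all rows. Aldoc among them was at -0.0 (log2, DESeq2 unadjusted p = 0.997), so its sign carries no information. Oligodendrocyte markers, 2 positive and 3 negative, had a median of 0.00 to 2 decimals. Endothelial markers had a median of 0.09, and 4 of 4 were positive, against 47.5% of all rows. None of these markers passed, and their part in the values of the 8 genes was not tested.

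Fold changes in this table varied with the GC content of transcripts, and the 8 genes differ in it. GC content was 38.9% for Fnip1, 44.3% for C9orf72, 49.6% for Smcr8, 49.9% for Wdr41, 52.4% for Fnip2, 52.8% for Nprl2, 53.3% for Nprl3 and 54.6% for Flcn, against a median of 50.5% over all rows. A smooth trend over 13555 rows passed through -0.07 at the GC content of Fnip1 and -0.04 at that of C9orf72. Relative to this trend C9orf72 stood at -0.04 and Fnip1 at 0.01 on the log2 scale, so the sign of Fnip1 changed. Fnip2 stood at -0.10, Flcn at -0.06, Smcr8 at -0.05, Nprl2 at -0.03, Wdr41 at 0.04 and Nprl3 at 0.06. The part of GC content in the deposited values was not tested.

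**Figure D4:**
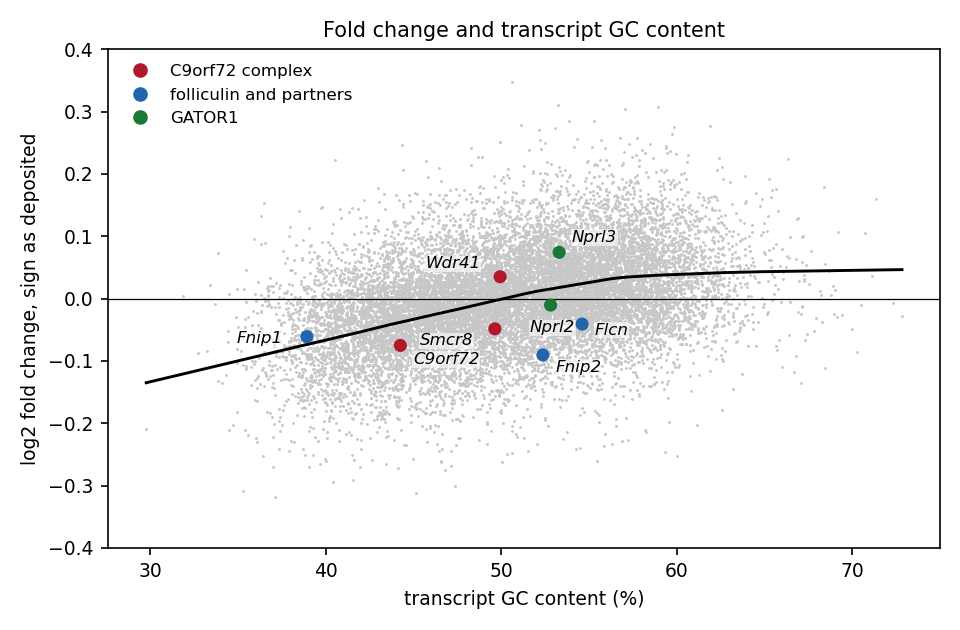
Log2 fold change (y axis, sign as deposited) against transcript GC content in percent (x axis) for all rows with a value (grey) and the 8 genes (colour), with the smooth trend over rows averaging at least 10 normalized counts (line). Fnip1, at 38.9%, lies on the trend, while Fnip2, at 52.4%, lies 0.10 below it.

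Of the 8 genes 4 lie on chromosome 11, and Flcn and Smcr8 are 0.967 Mb apart there with 20 rows between them. Both were negative and close in the authors' deposited table, at -0.04 and -0.05 on the log2 scale. The rows next to each gene were read as well. Beside C9orf72, Mob3b (33760 bases away) stood at -0.08 and Lingo2 (470624 bases away) at 0.02 (log2) in the authors' deposited table, with p-values of 0.411 and 0.827. Top3a, 159 bases from Smcr8, had 0.08 and Shmt1 0.01 (log2) in the authors' deposited table (p = 0.481 and 0.895), against the negative value of Smcr8. The neighbours of Wdr41, Tbca and Pde8b, had p-values of 0.976 and 0.580 in the authors' deposited table, and those of Flcn, Pld6 and Gm16062, had 0.468 and 0.308. Around Fnip1, Acsl6 stood at 0.02 and Rapgef6 at -0.07, and around Fnip2, Rapgef2 stood at 0.06 and Ppid at -0.10 (log2) in the authors' deposited table. Zmynd10, after Nprl2, had 0.02 (log2) in the authors' deposited table (p = 0.848). The haemoglobin gene Hba-a2, after Nprl3, stood at 0.07 (log2) and has no p in the authors' deposited table. None of these neighbours with a p had one under 0.05, against 1.50% of all rows.

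Several of the genes overlap another gene, and their counts are uncertain to that extent, since the libraries keep strand but whether the counting used it was not given in the sources used here. Nprl3 overlaps the DNA glycosylase gene Mpg on the opposite strand by 6196 bases in the GENCODE annotation and by 740 bases in RefSeq. Mpg averaged 62.8 normalized counts, to 243.2 for Nprl3, and both stood at 0.07 (log2) in the authors' deposited table (p = 0.532 for Mpg). Nprl2 overlaps Cyb561d2 by 17 bases in RefSeq, and Cyb561d2 stood at -0.04 (log2) in the authors' deposited table (p = 0.726). Smcr8 overlaps Shmt1, a gene of folate metabolism at 9.23 normalized counts in the authors' deposited table, by 184 bases in GENCODE. C9orf72 shares 279 bases with the opposite-strand transcript Gm12367 and contains the pseudogene Gm12366, while Fnip2 shares 8156 bases with Gm17359. Wdr41 shares 10634 bases with the antisense transcript Gm48350. Some overlaps are on the same strand, where strand cannot separate the reads. These are Gm12366 with C9orf72 (873 bases), the pseudogene Gm48349 with Wdr41 (467 bases) and Gm3513 with Fnip2 (880 bases). Fnip1 likewise overlaps the small nuclear RNA gene Gm24198, by 108 bases. Flcn overlaps no other annotated gene.

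Related genes were read from 10 lists with 94 genes, of which 91 had a row. The lists cover the rest of the amino acid sensing and mTORC1 pathway, the TFEB family and its targets, partners of C9orf72 with small GTPases, and other DENN domain genes. Pooled over all 10 lists, none of the 91 passed, and 3 had an unadjusted p under 0.05, 2 positive and 1 negative, against 0.659% and 0.840% of all rows. These were Itfg2, Arf1 and Rragc. Signs were divided, with 42 positive and 49 negative, and the median log2 fold change was 0.00 to 2 decimals, as over all rows. By role, KICSTOR, which anchors GATOR1 at the lysosome, had 2 positive and 1 negative of 3, with Itfg2 at 0.22 (± 0.11, p = 0.041) and Kptn at -0.14 (p = 0.203) in the authors' deposited table. GATOR2, which opposes GATOR1, had 3 positive and 2 negative of 5, with Mios at -0.10 (p = 0.310) and Wdr24 at 0.09 (p = 0.414) in the authors' deposited table. The sensors that convey amino acid levels had 3 positive and 5 negative of 8, with the sestrin gene Sesn1 at -0.12 (p = 0.233) and the SAMTOR gene Bmt2 at -0.11 (p = 0.302) in the authors' deposited table.

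The Rag GTPase genes, whose products are substrates of folliculin and GATOR1, were listed with the Ragulator anchor genes and the lysosomal transporter gene Slc38a9. That list had 4 positive and 6 negative of 10 and a median log2 fold change of -0.03. Rragc, which encodes RagC, the direct target of folliculin, averaged 464.1 normalized counts, with -0.19 ± 0.09 (log2 fold change, standard error) in the authors' deposited table (DESeq2, unadjusted p = 0.038, adjusted p = 0.9997). Slc38a9 had 0.17 (log2) in the authors' deposited table (p = 0.117). The mTORC1 and TSC genes were 5 positive and 4 negative of 9, with Mlst8 at 0.11 (p = 0.263) and Rptor at 0.10 (p = 0.314) in the authors' deposited table. Of the TFEB family, 3 of 4 had a row, with Mitf at -0.10 (p = 0.375) and Tfeb at 0.05 (p = 0.639) in the authors' deposited table. Genes under TFEB and TFE3 control in other settings had 10 positive and 5 negative of 15 and a median of 0.03, led by the lysosomal channel gene Mcoln1 at 0.17 (p = 0.059) and the autophagosome gene Map1lc3b at 0.10 (p = 0.289) in the authors' deposited table. No member of these lists passed.

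Partners of C9orf72 and the small GTPases on which its complex acts had 8 positive and 9 negative of 17, with a median of -0.01. Arf1, which encodes a GTPase that the complex can act on in vitro, averaged 2627 normalized counts, with 0.16 ± 0.07 (log2 fold change, standard error) in the authors' deposited table (DESeq2, unadjusted p = 0.031, adjusted p = 0.9997). Rab39b, a neuronal Rab gene, had -0.15 (log2) in the authors' deposited table (p = 0.138). Other DENN domain genes, the wider family in fold, had 6 positive and 14 negative of 20 and a median of -0.04, the same to 2 decimals as the 8 genes. None of the 20 had an unadjusted p under 0.05, against 1.50% of all rows. Avl9 and Dennd4c, an exchange factor gene for Rab10, had the smallest p of that list, at -0.12 and -0.13 (log2) in the authors' deposited table (p = 0.104 and 0.181).

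**Figure D5:**
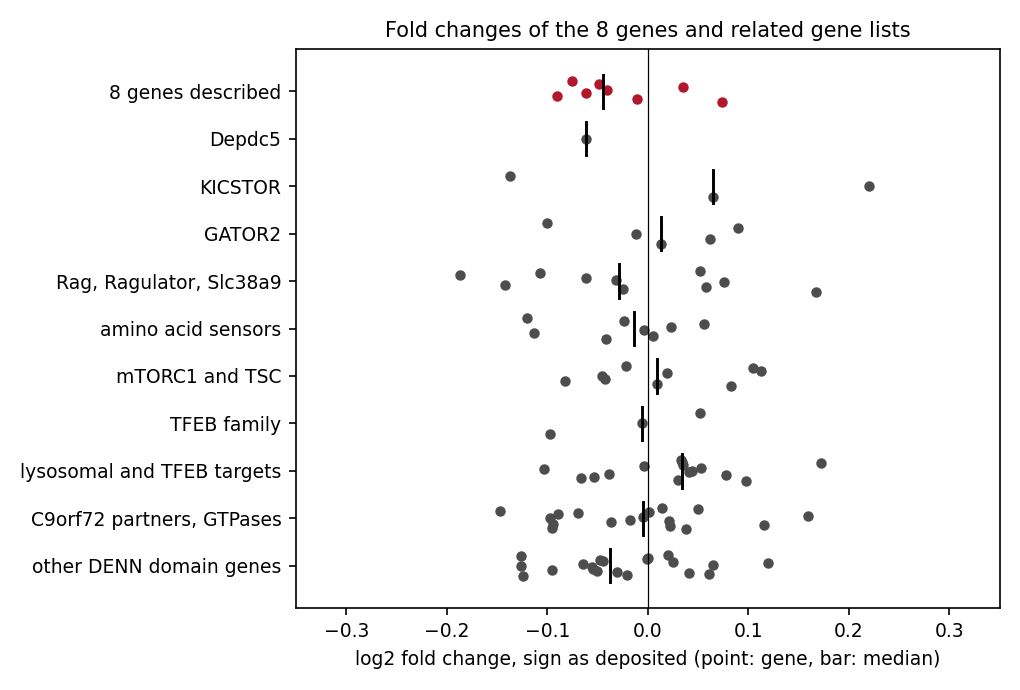
Log2 fold change (x axis, sign as deposited) of each gene (points) and the list median (black bars) for the 8 genes in red and 10 related lists in grey. Most points lie within 0.1 of 0; the points farthest out are Itfg2 at 0.22 and Rragc at -0.19, and none passed the adjusted threshold.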

How the data were processed

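The deposited file is the authors' DESeq2 comparison of 5 C9-BAC and 3 wild-type brains, with no values per mouse. Per the submitters' processing notes the authors used Trimmomatic, Bowtie2, DESeq and DESeq2 with build mm10, all without versions. How reads were counted and filtered was not given in the sources used here. Per the file headers, the authors deposited a mean normalized count (a signal averaged over mice), a log2 fold change and standard error on the log2 scale, a Wald statistic (a score), and a p-value and adjusted p-value. A recomputed statistic, p and Benjamini-Hochberg (BH) adjustment differed from the deposited columns by at most 8.3e-07, 8.8e-10 and 5.3e-12. The sum of mean normalized counts, 9226665, is the only measure of depth; depth per mouse is unknown.

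Rows were matched to symbols through RefSeq names of GRCm38.p6 (the assembly also called mm10) or GENCODE vM21, for 15930 of 15978 rows. Transcript lengths and GC content came from GENCODE vM21 (15751 rows, 98.6%). The authors' adjusted p is the main result, and 95% intervals are the estimate ± 1.96 standard errors. Alternatives adjusted over 13704 rows averaging at least 10 normalized counts, used a threshold of 0.1, rescaled the statistic to its median and median absolute deviation (empirical null), or first took off its lowess trend with GC content (fraction 0.3). Python 3.11.15, scipy 1.17.1 and statsmodels 0.14.6 were used. The 8 genes and all lists were chosen with earlier results of these data known. Named are the 8 genes, Depdc5, the nearest row on each side of each, the 2 genes of smallest p in each pathway list and any with an unadjusted p under 0.05; others (Slc66a1, markers, overlapping genes) were chosen after their values were seen. With 1 comparison, no likeness of pattern between genes could be computed. Of the list genes, Kics2, Tfec and Dennd11 were not matched to a row.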

Additional observations from a re-analysis of the deposited data

How the results depend on the processing

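None of the 8 genes passed under any of the 4 alternatives run: adjustment over the more abundant rows, a threshold of 0.1, the empirical null, or the empirical null after the GC trend was taken off. Over all rows the count of 0 became 3 under the last, which were Lamp5, Mical2 and Snrpn, and stayed 0 under the other 3. The last divided each score by a spread of 0.681, which enlarges every score. The parts of this rescaling and of the GC trend in the 3 calls were not separated. As deposited, 239 rows had an unadjusted p under 0.05. Centring on the median kept the sign of all 8 fold changes. Relative to the GC trend, 7 kept their sign and Fnip1 moved from -0.06 to 0.01; the cause was not tested. With the shortest transcript as length, levels per kilobase became 173.2 for Smcr8, 179.8 for Flcn and 84.9 for Nprl3, because the divisor is smaller. All 20 list counts stayed within 1.5 times without low rows. No paired analysis was possible because the table has no values per mouse, which also prevented leaving out each mouse. The sample numbers, which differ between C9-BAC and wild-type, do not say whether mice were paired. Depth per mouse is unknown. An unadjusted p of 0.05 needed a deposited fold of 1.14 to 1.16 for these genes. With shrinkage, such a fold would be smaller than the difference in expression.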
